A study of Mus musculus with 6 samples.

Results

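The transcriptome described here is that of mouse pre-B cells of line 1676 that carried an empty retroviral vector and grew in interleukin-7 (IL-7). It rests on 2 of the 6 arrays of the series, those whose labels give a control vector and IL7, replicates 1 and 2, and they are called control 1 and control 2. The other 4 arrays, of the same line with a miR-26a vector or with a sponge against the miR-26 family, were collected to learn what this microRNA family does in pre-B cells and were not used. The line was grown out of whole bone marrow of mice with the genotype SLP-65-/- LAT-/-, so the controls lack both adaptor proteins too. After infection the cells were selected with puromycin and kept in an excess of IL-7, supplied by J558L cells that make it. The design text describes 2 independent experiments with separately generated cells, and both arrays hold RNA of 1 line, so the spread between them is that of repeated cultures of 1 genetic background and not that of animals. Age and sex of the donor mice are not given in the sources used here.

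Pre-B cells have rearranged a heavy chain gene and carry the µ heavy chain on the surface with a surrogate light chain built from λ5 and VpreB. This pre-B cell receptor (pre-BCR) signals through Igα, Igβ, the kinase Syk and the adaptor SLP-65, which is encoded by Blnk. IL-7, the growth factor of these cells in mouse bone marrow, signals through the IL-7 receptor, Jak kinases and STAT5 and drives survival and division. PAX5, EBF1 and the E2A proteins are the transcription factors that set up and keep the B cell programme, and light chain rearrangement by the RAG proteins follows when proliferation ends.

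Each value below is a log2 processed signal, the brightness of a probe after the scanner software took off the background, given for control 1 and then control 2. A gene was called detected when the software marked at least 1 of its probes as well above background on both arrays, and its level is that of its brightest probe. Of 55681 probes, 26336 (47.3%) were detected, and of 22333 named genes 12661 (56.7%). Means of detected probes over both arrays spanned log2 3.64 to 18.62 with a median of 8.45, and the brightest 10% of named genes (2233 genes) began at log2 12.77. Ranks run from 1, the brightest of the 22333 named genes, and every detected gene was brighter than at least 41.4% of them. Brightness also depends on the sequence of the probe, so a rank places a probe and does not count molecules, and an order of genes is an order of their probes and not of transcript levels. Both arrays showed the same picture, since 29618 and 29599 of their 59305 spots were well above background, none was saturated, and detected probes correlated at r = 0.997 across probes, which are not independent replicates. In these bulk samples fewer cells of a type and less RNA per cell cannot be told apart.

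**Figure D1:**
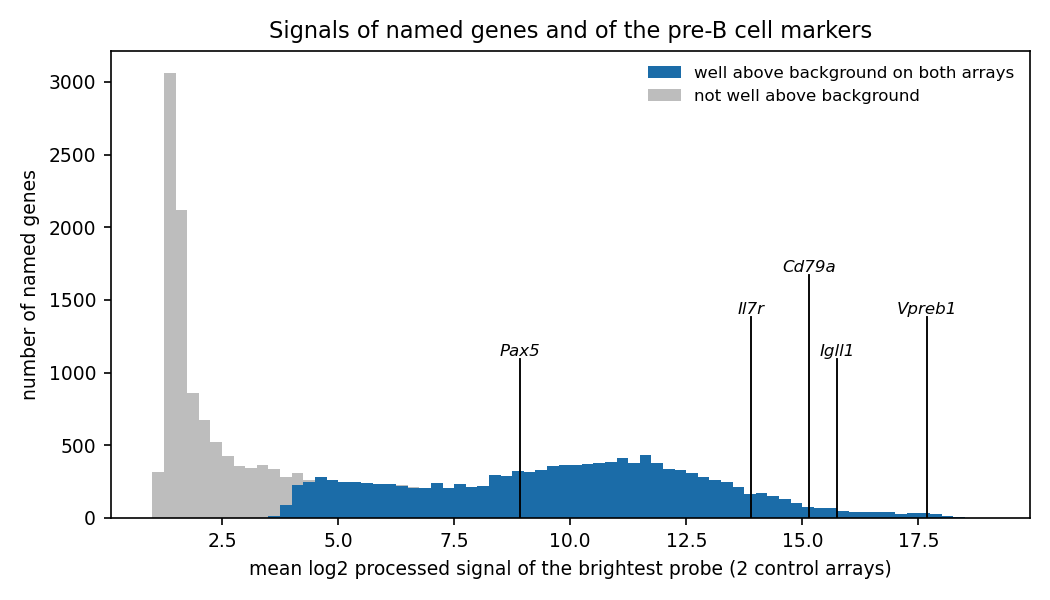
Number of named genes (vertical axis) by the mean log2 processed signal of their brightest probe over both control arrays (horizontal axis), with detected genes in blue and the others in grey. Black lines mark the 5 pre-B cell markers, of which Vpreb1, Igll1, Cd79a and Il7r lie at the bright end and Pax5 lies near the middle of the detected genes.

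The 5 genes taken as markers of the labelled cell type were all detected, and 4 of them were in the brightest 10% of genes. Vpreb1, a part of the surrogate light chain, gave 17.74 and 17.62 (mean 17.68 ± 0.08, SD, n = 2; rank 51). Igll1, which encodes λ5, the other part, gave 15.81 and 15.71 (mean 15.76 ± 0.07, SD, n = 2; rank 328). These transcripts are known for being restricted to B cell precursors, and both replicates placed them among the brightest genes of the array. Cd79a, the signalling chain Igα, gave 15.19 and 15.12 (rank 494), and its second probe was also detected, at 11.75 and 11.77. Il7r, the α chain of the IL-7 receptor, gave 13.89 and 13.91 (rank 1151). Pax5 gave 8.86 and 8.96 (rank 7816) on 1 probe and 7.53 and 7.60 on the other. Its rank was near the middle of the list, with 65.0% of named genes dimmer. The markers were chosen for the label pre-B cell and 56.7% of all named genes were detected, so detecting them does not test the label. The largest SD among these markers and the other receptor genes was 0.18.

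The promoters of the markers Igll1, Vpreb1 and Cd79a are shown. E2A proteins are known to act on surrogate light chain and Igα genes, and their gene Tcf3 was itself detected (13.97 and 13.84). Promoters of the other markers, Pax5 and Il7r, are not shown, and whether they hold the E box marked below is not reported here. The lines give the 250 bases before the annotated start in RefSeq, build GRCm38.p6, 5′ to 3′ on the strand of the gene, with the E box CAGGTG or its reverse complement CACCTG in capitals. Both were searched on both strands. The Igll1 promoter is chr16:16863986-16864235 on the minus strand, with its match 8 bases from the start, and that of Vpreb1 is chr16:16869256-16869505, also minus, with the match 88 bases away. The Cd79a promoter is chr7:24897247-24897496 on the plus strand, with the match at 154 bases.
Igll1: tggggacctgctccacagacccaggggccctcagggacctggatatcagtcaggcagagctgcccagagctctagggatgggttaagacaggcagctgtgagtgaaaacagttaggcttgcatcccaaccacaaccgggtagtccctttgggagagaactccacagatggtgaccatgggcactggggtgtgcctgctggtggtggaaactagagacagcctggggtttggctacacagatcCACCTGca
Vpreb1: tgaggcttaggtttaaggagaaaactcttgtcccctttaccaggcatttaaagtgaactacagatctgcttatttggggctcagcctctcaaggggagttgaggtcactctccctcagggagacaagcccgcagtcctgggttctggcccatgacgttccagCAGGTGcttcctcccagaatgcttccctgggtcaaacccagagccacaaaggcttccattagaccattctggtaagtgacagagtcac
Cd79a: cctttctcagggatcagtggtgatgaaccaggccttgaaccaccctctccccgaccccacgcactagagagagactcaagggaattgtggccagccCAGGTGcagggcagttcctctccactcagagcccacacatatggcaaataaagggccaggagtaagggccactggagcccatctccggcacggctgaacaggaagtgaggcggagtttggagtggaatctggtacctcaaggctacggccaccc
The motif was chosen after the sequences were seen. It is held by 17.2% of all 32851 promoters of that source and by 19.4% of the genes with a promoter there, and, among the genes named on the array, by 18.2% of 9993 detected and 20.5% of 7450 not detected. Of the 5 receptor genes with a promoter there, 4 hold it, including those shown. A match is a run of letters and no evidence of binding.

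All 7 genes of the pre-BCR and of the mature receptor that it shares chains with were detected, against 56.7% of all named genes. All lay in the brightest 10%. Vpreb2, a close relative of Vpreb1, gave 15.50 and 15.24 (rank 442), and the probes of both genes share no run longer than 6 of their 60 bases. Vpreb3, whose product assists receptor assembly, gave 17.64 and 17.55 (rank 60). Cd79b, the partner of Cd79a, gave 16.71 and 16.67 (rank 184). Ighm, the constant region of the µ heavy chain, gave 15.52 and 15.59 (rank 379). The heavy chain, the surrogate light chain and both signalling chains were all measured as bright transcripts on each array. Of the other immunoglobulin constant genes with a probe, Igkc (κ light chain) gave 11.01 and 11.09, while its second probe gave 3.70 and 6.07 and was not detected on both arrays. Iglc3 and Iglc2, of the λ light chains, gave 7.77 and 7.95, and then 6.97 and 7.29. Ighg1 and Ighg2c, constant regions of switched heavy chains, were not well above background. Probes of Ighd and the remaining constant genes were not identified by name and were not analysed here.

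**Figure D2:**
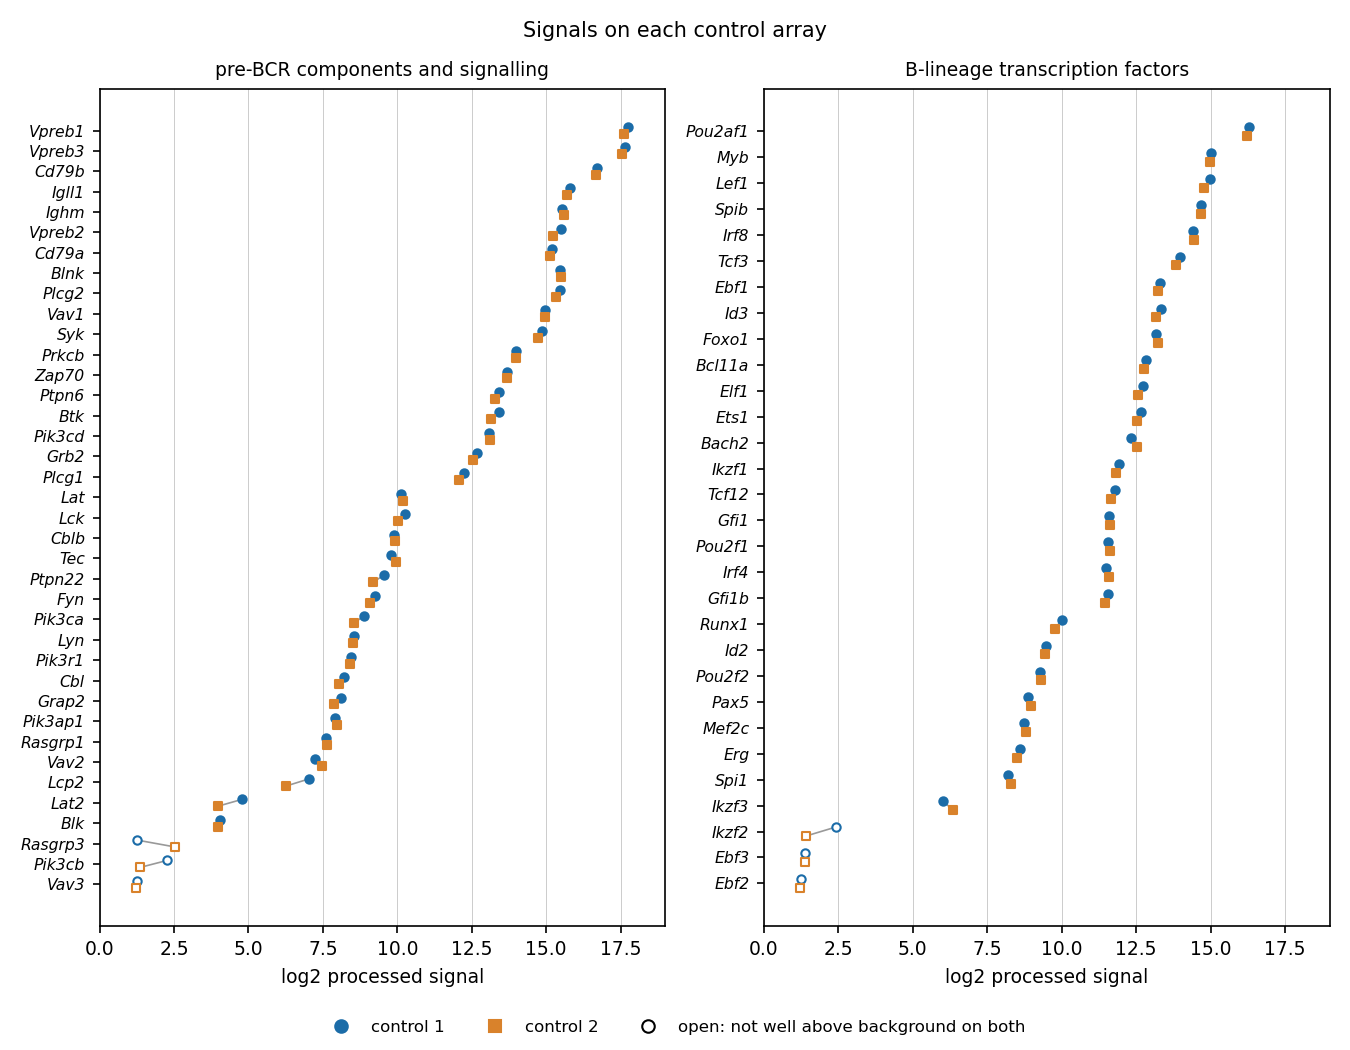
Log2 processed signal on control 1 (circles) and control 2 (squares) for genes of the pre-BCR and its signalling pathway (left) and for B-lineage transcription factors (right), each panel's groups ordered by mean signal. Filled symbols are genes detected on both arrays. Receptor genes sit above log2 15 on both arrays, and only 6 genes in the 2 panels have open symbols.

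Both genes that the genotype names as deleted had probes well above background. Blnk gave 15.45 and 15.48 (rank 404) at a probe on chr19:41003426-41003485 and Lat gave 10.13 and 10.20 (rank 6086) at a probe on chr7:133507719-133507778, both in build mm9 as given with the array. Which exons the knockout alleles lack is not given in the sources used here, so it is not known whether these probes lie in the deleted part, and they check neither the label nor the proteins. The signalling list as a whole was widely present, with 30 of its 33 genes detected (90.9%, against 56.7% of all named genes) and 10 in the brightest 10%. Plcg2, the phospholipase downstream of SLP-65, gave 15.46 and 15.34. Vav1, an exchange factor, gave 14.97 and 14.95. Syk gave 14.86 and 14.74 and protein kinase C β (Prkcb) gave 13.99 and 13.99. None of these 4 differed by more than 0.13 between arrays. Both members of the Syk kinase family were detected, as the T cell kinase gene Zap70 gave 13.70 and 13.67 (rank 1306).

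Among Src kinases, Lck (10.27 and 10.03), Fyn (9.24 and 9.08) and Lyn (8.54 and 8.51) were detected at middle ranks, and Blk (4.05 and 3.98) was detected at the dim end (rank 12654). Of the Tec kinases, Btk gave 13.42 and 13.15 and Tec gave 9.79 and 9.94. Both phospholipase Cγ genes were detected, Plcg1 at 12.23 and 12.05. Among adaptors related to the missing ones, Lcp2, which encodes SLP-76, the T cell relative of SLP-65, gave 7.02 and 6.28 (rank 10016). Lat2, which encodes the LAT relative NTAL, gave 4.78 and 3.97 (rank 12235). Signals of Lcp2 and Lat2 differed by 0.75 and 0.82 between arrays, more than the 0.57 that 95% of detected probes stayed within. Vav3, Pik3cb and Rasgrp3 were the 3 genes of the list not well above background, although Vav2, Pik3cd, Pik3ca and Rasgrp1 were detected.

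All 20 genes of the IL-7 receptor list were detected (against 56.7% of all named genes), 3 of them in the brightest 10%. Crlf2, which pairs with the IL-7 receptor α chain to form the receptor for TSLP, gave 14.06 and 14.07 (rank 1058). Il2rg, the common γ chain that completes the IL-7 receptor, gave 10.71 and 10.69 (rank 5290). Of the kinases, Jak1 gave 12.42 and 12.42 and Jak3, which binds the γ chain, gave 10.07 and 10.21. Jak2 (11.41 and 11.29) and Tyk2 (9.91 and 9.94) were detected too, so all 4 Jak genes were. Stat5b gave 11.86 and 11.75 and Stat5a 10.29 and 10.19, and Stat3 and Stat6 were detected at 11.45 and 11.23, and then 10.30 and 10.32. Among known STAT5 targets, Socs2 (11.14 and 10.91), Pim1 (10.38 and 10.46) and Socs1 (9.43 and 9.16) were detected. Cish gave 6.61 and 5.62, a difference of 0.99 between arrays, so its level was poorly fixed. Mcl1 (13.83 and 13.75) was the survival gene with the brightest probe and Bcl2 gave 7.03 and 7.05.

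Of 30 transcription factors of the B lineage, 27 were detected (90%, against 56.7% of all named genes) and 10 lay in the brightest 10%. Pou2af1, the co-activator OBF-1 of octamer sites, gave 16.27 and 16.22 (rank 250). Myb, a factor of proliferating precursors, gave 15.001 and 14.97 and Lef1, known from pro-B and pre-B cells, gave 14.97 and 14.79. Spib gave 14.69 and 14.67 and Irf8 14.41 and 14.44. Of the 3 factors that define B lineage entry, Tcf3 gave 13.97 and 13.84 (rank 1148), Ebf1 gave 13.30 and 13.24 (rank 1699) and Pax5 the middle value given above. Foxo1, which switches on the Rag genes and Il7r, gave 13.17 and 13.23 (rank 1759). Apart from Pax5, these factors were in the brightest 10%, and none of them differed by more than 0.18 between arrays.

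Family members could be told apart in several cases. Ikzf1 (Ikaros) gave 11.92 and 11.83 on the brightest of 3 detected probes and Ikzf3 (Aiolos) gave 6.03 and 6.34, while Ikzf2 (Helios) was not well above background on either of its 2 probes. Ebf1 was the only one of 3 Ebf genes of the list that was detected, as Ebf2 and Ebf3 were at 1.25 and 1.23, and then 1.36 and 1.38 and not above background. Irf4, which promotes light chain rearrangement, gave 11.47 and 11.60. Both Id genes of the list were detected, Id3 at 13.33 and 13.17 and Id2 at 9.47 and 9.45; their products hold E proteins off DNA. Spi1, the gene of PU.1, gave 8.19 and 8.30 (rank 8600), among the dimmest detected members together with Erg (8.60 and 8.49) and Mef2c (8.74 and 8.81). Bach2, a factor of the pre-BCR checkpoint, gave 12.33 and 12.51.

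Surface and stage genes of B cell precursors were detected in 19 of 22 cases (86.4%, against 56.7% of all named genes). Cd93, the AA4.1 antigen of early B cells, gave 16.08 and 16.10 (rank 275). Cd24a, the heat-stable antigen, gave 16.05 and 15.90. Spn, the CD43 antigen of pro-B and large pre-B cells, gave 13.81 and 13.62. Il2ra, the CD25 antigen of pre-B cells, gave 10.43 and 10.33 (rank 5779). Kit, the stem cell factor receptor of pro-B cells, was at 1.31 and 1.33 on its only probe and not well above background. Bst1 (the BP-3 antigen) and Enpep (BP-1), further precursor antigens, gave 12.01 and 11.90, and then 11.63 and 11.67. The dim end held Ly6d (9.05 and 9.22), Flt3 (5.12 and 5.03) and Cd34 (4.62 and 4.59), and of the last 2 some probes were not detected. Cd2 and Cd9 were not well above background.

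Every one of the 15 genes of V(D)J recombination and end joining was detected, against 56.7% of all named genes. Rag1 gave 9.40 and 9.64 (rank 7024) and its second probe 5.30 and 5.25. Rag2 gave 9.38 and 9.28 (rank 7274) and its second probe 4.43 and 4.51. The recombinase genes were detected by all 4 probes but at middle ranks. Dntt, the terminal transferase that adds N nucleotides, gave 12.91 and 12.65 (rank 2215). Hmgb2 and Hmgb1, DNA-bending cofactors of the recombinase, gave 17.03 and 16.85, and then 17.03 and 16.72, and led the list, followed by the Ku subunit gene Xrcc6 (15.65 and 15.54). The ligase gene Lig4 gave 12.45 and 12.47 and the polymerase gene Poll 11.35 and 11.33. At the dim end, Prkdc (9.14 and 9.39), Atm (9.11 and 9.14) and Dclre1c, the gene of Artemis (8.98 and 9.09), remained clearly within the detected range.

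Genes of later B cell stages were detected in 11 of 16 cases (68.8%), against 56.7% of all named genes. Cd72, a co-receptor of B cells, gave 14.89 and 14.99 and Tnfrsf13b, the receptor TACI, gave 13.88 and 13.89; both were in the brightest 10%. Bcl6 gave 12.29 and 12.33, Xbp1 12.17 and 11.89 and Tnfrsf13c, the BAFF receptor, 10.42 and 10.54. Ms4a1 (CD20), Cd40, Tnfrsf17 (BCMA) and Jchain were not well above background. Prdm1, the plasma cell factor, gave 8.07 and 8.05 and Sdc1 (CD138) 7.90 and 7.77. Cd22 (6.91 and 7.30), Fcer2a (5.04 and 5.36) and Ciita (4.68 and 5.18) were dim.

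**Figure D3:**
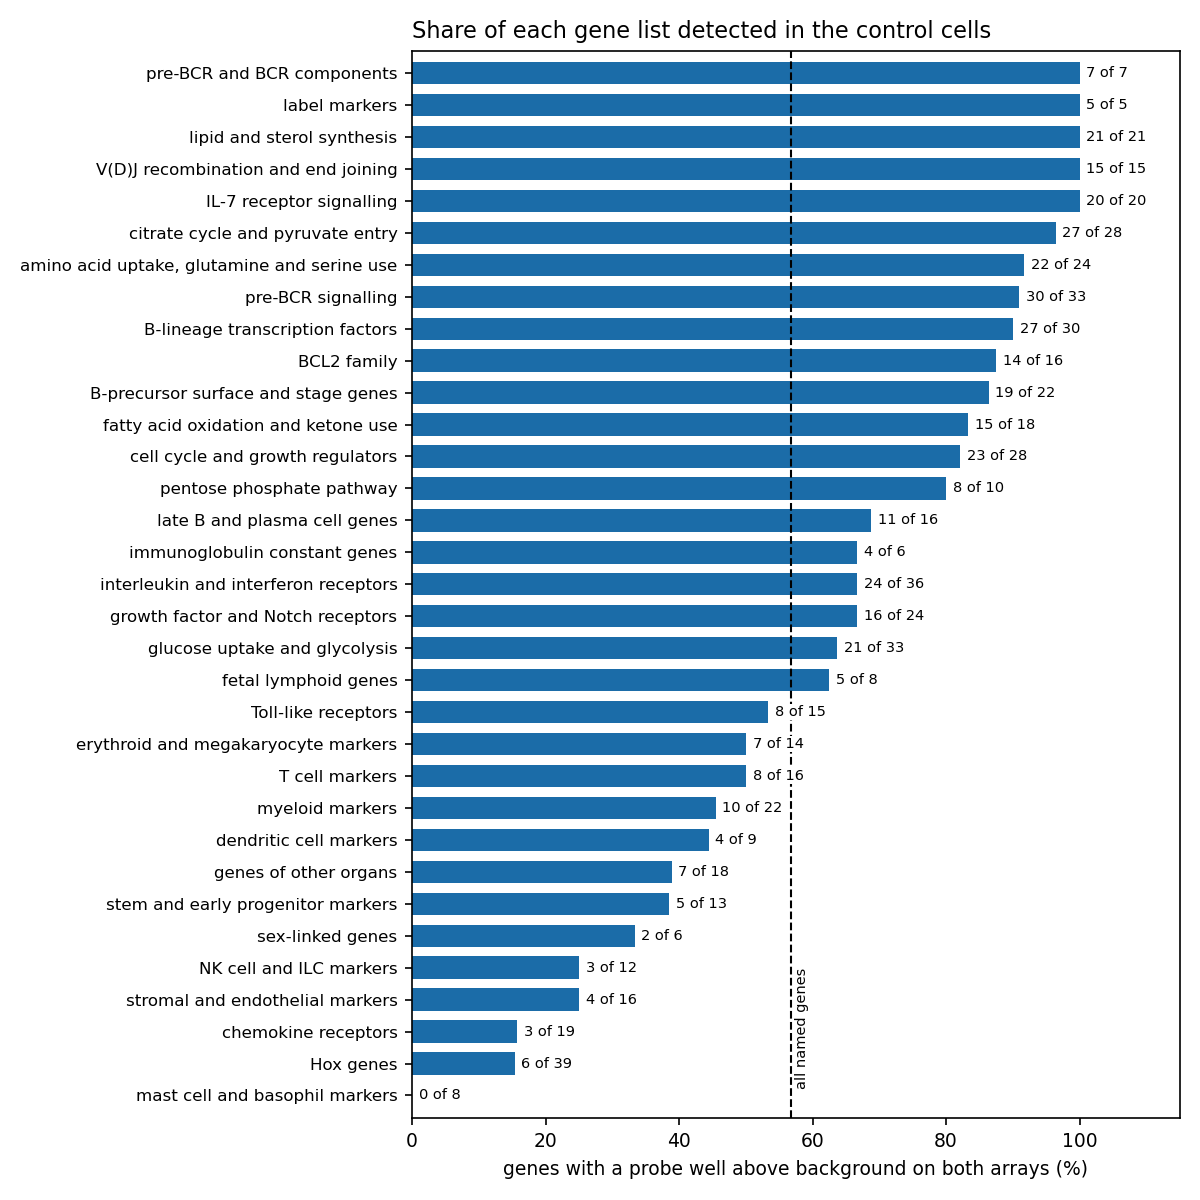
Percent of the genes of each of 33 lists with a probe well above background on both control arrays (bars, with the counts beside them); the dashed line is the share among all named genes, 56.7%. Lists of the receptor, IL-7 signalling, recombination and lipid synthesis reach 100%, and lists of other blood and tissue cells lie left of the line, down to 0 of 8 for mast cells and basophils.

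Markers of other cell types were less complete. Over 8 lists with 108 different genes, 39 were detected (36.1%), below the 56.7% of all named genes, and 2 were in the brightest 10%. The T cell list had 8 of 16 detected, with a summed signal on the linear scale of 2861 on control 1 and 2822 on control 2. Sums of this and the following lists include genes that were not detected. Lat led it, and Cd4 (9.72 and 9.69), Cd3e (9.12 and 8.94), Cd6 (7.10 and 7.45), Cd5 (6.63 and 6.22) and Cd28 (4.35 and 4.13) followed. The T cell receptor partners Cd3d and Cd3g, both Cd8 genes, Thy1, Bcl11b, Gata3 and Ptcra were not well above background. In the NK cell and innate lymphoid list 3 of 12 were detected, Nkg7 (10.004 and 10.02, with a second probe at 1.28 and 1.26), Prf1 (7.76 and 7.65) and Klrb1c (6.40 and 6.45), with summed signals of 1391 and 1379. Ncr1, Eomes and Gzmb were not, and Tbx21 and Gzma were well above background on control 1 only.

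The myeloid list had 10 of 22 detected (45.5%, against 56.7% of all named genes). Its summed signals were 64841 and 68272, most of it from 1 gene. Csf3r, the G-CSF receptor, gave 15.75 and 15.82 (rank 324) on a probe that shares a 20-base run with probes of 2 other genes. In such counts, here and below, each probe without a name stands as a gene of its own. Csf2ra, the α chain of the GM-CSF receptor, gave 12.34 and 12.39. Itgam (CD11b) gave 11.54 and 11.90 on a probe that shares a run of 20 bases with probes of 21 other genes, while its other probes gave 7.78 and 7.81 and, dimmer, 4.94 and 5.48. Fcgr3 (8.46 and 8.52), Cd68 (8.45 and 8.50), Elane (8.24 and 7.90) and Csf1r (8.19 and 7.93) were in the middle and Lyz1 (5.61 and 4.99), Adgre1 (4.13 and 4.45) and Camp (4.72 and 3.81) at the dim end. Mpo, Cebpa, Cebpe, Ly6g, Lyz2, Cd14, S100a8 and S100a9, which define granulocytes and monocytes, were not well above background. Whether rare myeloid cells had a part in these signals was not tested.

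In the dendritic cell list 4 of 9 were detected (44.4%, against 56.7% of all named genes). Its sums of 52374 and 55774 came mostly from Siglech. Siglech, a lectin of plasmacytoid dendritic cells, gave 15.66 and 15.75 (rank 339) on 1 probe, 4.50 and 4.89 on a second and was not detected on the last, so this rank rests on 1 probe. Bst2 gave 9.39 and 8.996 and Zbtb46 5.28 and 4.96, and Itgax, Clec9a, Xcr1, Cd209a and Ccr9 were not well above background. Of the erythroid and megakaryocyte list 7 of 14 were detected (50%, near the 56.7% of all named genes). Their highest mean of both arrays was log2 6.36, and the list sums were 347 and 318. Hbb-b1, Gata1 and Pf4 were not detected, and Hba-a1 was well above background on control 2 only. None of 8 mast cell and basophil genes was detected, so their sums (36.7 and 33.5) come from undetected genes alone. Stem and progenitor genes reached 5 of 13 (38.5%, against 56.7%) with a highest mean of 6.80, for Slamf1 (sums 250.4 and 239.6). Ly6a, Kit, Meis1, Mecom and Gata2 were not well above background.

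Stromal and endothelial genes were detected in 4 of 16 cases (25%, against 56.7% of all named genes), with sums of 4302 and 3732. Kdr, a VEGF receptor, gave 11.49 and 11.29 on 1 probe and was not detected by the other, Lepr gave 9.66 and 9.21 on 1 of 4 probes, Pecam1 gave 9.11 and 9.16 and Col1a2 4.53 and 4.43. Cxcl12, Kitl, Vcam1, Col1a1, Pdgfra and Cdh5, which mark marrow stroma and vessels, were not well above background. Of 18 genes of other organs 7 were detected (38.9%). Mbp, known from myelin, gave 12.02 and 11.87, with all 3 of its probes detected. Snap25 gave 11.22 and 11.73 on its only probe, which shares a 20-base run with probes of 21 other genes. Umod (10.30 and 9.88) and Syp (9.76 and 9.73) followed, and Ins2, Krt14 and Krt5 were dim. Alb, Apoa1 and Ttr were not well above background, and Gfap and Myh6 were so on control 2 only.

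Of 36 interleukin and interferon receptor genes 24 were detected (66.7%, near the 56.7% of all named genes), and only Il7r was in the brightest 10%. The interferon γ receptor genes Ifngr1 and Ifngr2 gave 11.86 and 11.85, and then 11.77 and 11.66, and those of the type I interferon receptor, Ifnar1 and Ifnar2, gave 10.40 and 10.21, and then 9.84 and 9.68. Il3ra, the IL-3 receptor α chain, gave 11.36 and 11.26, and the β chain genes it can pair with, Csf2rb and Csf2rb2, gave 10.12 and 9.67, and then 7.28 and 7.08. Il15ra gave 11.25 and 11.09 on a probe that shares a 20-base run with probes of 5 other genes and 7.66 and 7.72 on the second. Among the receptors that use the common γ chain, Il2ra and Il21r (9.89 and 9.73) were detected and Il4ra gave 5.99 and 5.98. Il2rb and Il9r were not well above background on both arrays. The dimmest detected were Il22ra1, Il1rap, Il27ra and Il12rb1, with means of both arrays between log2 4.20 and 4.70. Receptors for IL-1 (Il1r1), IL-6 (Il6ra), IL-18, IL-23 and oncostatin M were not detected, whereas the shared chain Il6st gave 7.30 and 7.09.

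Only 3 of 19 chemokine receptor genes were detected (15.8%, against 56.7% of all named genes). Cxcr4, the receptor for CXCL12 that holds B cell precursors in the marrow, gave 10.90 and 10.85 (rank 5031). Ccr7 gave 7.26 and 7.07 and Cxcr6 4.94 and 4.52. Cxcr5, Ccr6 and Ackr3 were not well above background. Ccr10 read 1.31 on control 1 and 7.17 on control 2, the widest split between arrays in these lists, and counts as not detected. Of 15 Toll-like receptor genes and partners 8 were detected (53.3%, near the 56.7% of all named genes). Tlr9, the sensor of CpG DNA, gave 9.61 and 9.64, Tlr4 gave 9.57 and 9.22 on 1 of 2 probes with its partner Ly96 at 9.07 and 8.61, and Tlr7 gave 8.54 and 8.40 on 1 of 3. Tlr2 (8.28 and 8.40) and Tlr6 (7.19 and 7.37), which form a pair, were detected and Tlr1, the other partner of Tlr2, was not. Tlr3, Tlr5 and Tlr8 were not well above background.

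Growth factor and Notch receptors were detected in 16 of 24 cases (66.7%, near the 56.7% of all named genes), none in the brightest 10%, and in 9 cases when the median probe of each gene was taken. Tgfbr2 gave 12.52 and 12.53 and its partner Tgfbr1 9.83 and 9.80, and Bmpr1a gave 10.09 and 9.96. Of the Notch genes, Notch2 (8.48 and 8.62), Notch1 (6.77 and 6.66) and Notch4 (5.95 and 6.01) were detected and Notch3 was not. The insulin receptor gene Insr gave 7.23 and 7.37 on the brightest of 3 detected probes and Igf2r 9.58 and 9.64. Igf1r was at 1.57 and 1.69 on its only probe and not well above background. Egfr, Pdgfra and Pdgfrb were not either, and Erbb2 was well above background on control 2 only. Of 39 Hox genes 6 were detected (15.4%, against 56.7% of all named genes). Hoxb4 gave 6.86 and 6.49, and Hoxb6, Hoxa7, Hoxa6, Hoxa4 and Hoxa9 had means of both arrays between log2 4.06 and 4.87. No gene of the C and D clusters was detected.

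Genes of the dividing cell were bright. Of 28 regulators of cycle and growth 23 were detected (82.1%, against 56.7% of all named genes) and 9 were in the brightest 10%. The probes of the 3 D-type cyclins differed, as Ccnd3 gave 17.35 and 17.16 (rank 106) on the brighter of 2 detected probes. Ccnd2 (1.56 and 1.67) and Ccnd1 (3.31 and 1.20), each with a single probe, were not well above background. Mki67, the proliferation antigen Ki-67, gave 15.73 and 15.91 and Cdk4, the partner of D cyclins, gave 15.29 and 15.04. Its relative Cdk6 gave 7.44 and 7.22 (rank 9414). Ccna2 gave 14.90 and 14.85, Ccnb1 14.31 and 14.17 and Ccne1 13.18 and 12.996, and Ccne2 was not detected. Of the Myc family, Myc gave 11.81 and 11.21 and Mycn 9.43 and 9.45, and Mycl was not well above background. The difference of Myc between arrays, 0.60, was just over the 0.57 that 95% of detected probes stayed within.

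Among inhibitors of the cycle, Cdkn2d (14.21 and 14.16), Cdkn1b (12.47 and 12.46) and Cdkn2c (11.52 and 11.46) were detected, as was Cdkn1a (11.18 and 11.11), the p53 target p21. Cdkn2a, the locus of p16 and p19ARF, gave 10.20 and 9.43 and on its second probe 6.19 and 4.76, so both probes were dimmer on control 2. Cdkn2b next to it was not detected and Cdkn1c gave 5.41 and 5.34. Trp53 gave 9.42 and 9.45. In the BCL2 family 14 of the 16 genes with a probe were detected (87.5%, against 56.7% of all named genes). Mcl1, Bcl2l1 (13.74 and 13.60), Bak1 (13.18 and 13.004) and Bad (12.94 and 12.75) were in the brightest 10%, and Bax gave 12.29 and 12.02. Bcl2l11, the gene of BIM, gave 6.78 and 6.46 and Bik 4.36 and 4.49, at the dim end with Bcl2 and Bcl2l2 (7.30 and 7.08). Bcl2a1d and Hrk were not well above background.

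Metabolic genes were well represented. Over 6 lists with 134 different genes, 114 were detected (85.1%, against 56.7% of all named genes) and 53 were in the brightest 10% (39.6%, against 10%). In glucose uptake and glycolysis 21 of 33 were detected (63.6%, near the share of all named genes), and what was and was not detected divided the isozymes step by step. Of the glucose transporters, Slc2a1 (GLUT1) gave 10.74 and 10.46 and Slc2a3 (GLUT3) 7.89 and 8.07, and Slc2a2, Slc2a4 and Slc2a5 were not well above background. Among hexokinases, Hk1 gave 16.85 and 16.72 (rank 169) on a probe that shares a 20-base run with probes of 5 other genes, and 10.29 and 10.26 on the next. Its rank therefore rested on that probe. Hk2 gave 7.88 and 7.41 and Hk3 was detected on control 2 only (2.11 and 5.20).

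All 3 phosphofructokinase genes were detected, Pfkp at 9.69 and 9.59, Pfkm at 9.69 and 9.54 and Pfkl at 9.42 and 9.36. Below that step each isozyme family had 1 member in the brightest 10%. Aldoa gave 15.76 and 15.14 and Aldoc 8.78 and 8.93. Gapdh (17.55 and 17.40) and Pgk1 (15.02 and 14.72) were bright and their testis forms Gapdhs and Pgk2 were not detected, as held for Pgam1 (14.57 and 14.25) against the muscle form Pgam2. The brightest Gapdh probe lies on chr7 in the array design and shares a 20-base run with probes of 5 other genes. The next Gapdh probe, on chr6, shares such a run too and gave 17.49 and 17.25. Eno1 gave 15.47 and 15.08 and the muscle form Eno3 9.95 and 9.95, whereas the neuronal form Eno2 was not detected. Pkm gave 14.47 and 14.18 and Pklr was not well above background on control 2. Ldha gave 16.60 and 16.25 (rank 228), while Ldhb (1.49 and 1.65 on its only probe) and Ldhc were not well above background. The lactate exporters Slc16a1 and Slc16a3 gave 5.82 and 6.03, and then 4.49 and 3.99. Ldha, Eno1 and Aldoa were brighter on control 1 by 0.36 to 0.62.

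**Figure D4:**
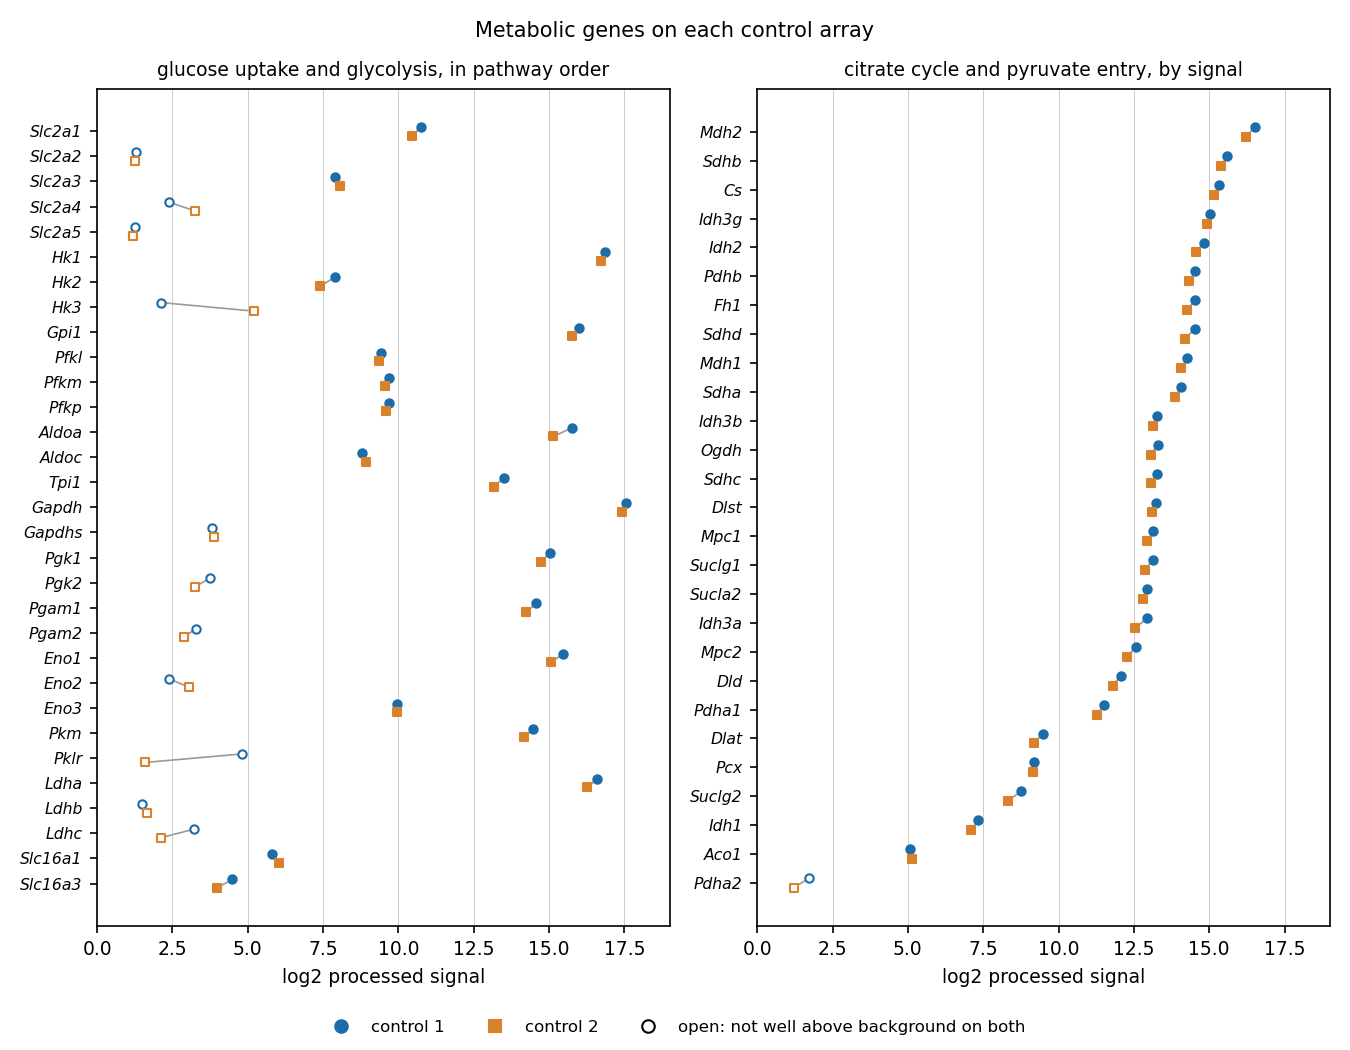
Log2 processed signal on control 1 (circles) and control 2 (squares) for genes of glucose uptake and glycolysis in the order of the pathway (left) and of the citrate cycle and pyruvate entry by mean signal (right). Filled symbols are genes detected on both arrays. In glycolysis filled and open symbols alternate between the isozymes of a step, such as Ldha against Ldhb, and in the citrate cycle only Pdha2 is open.

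The citrate cycle list was nearly complete, with 27 of 28 detected (96.4%, against 56.7% of all named genes) and 18 in the brightest 10%. Mdh2, the mitochondrial malate dehydrogenase, gave 16.52 and 16.21 (rank 235). Sdhb, a subunit of succinate dehydrogenase, gave 15.60 and 15.40 and citrate synthase (Cs) gave 15.34 and 15.15. The subunits Idh3g (15.02 and 14.92) and Pdhb (14.53 and 14.34) and the dehydrogenase Idh2 (14.82 and 14.56) were among the 6 brightest. Pdha2, the testis form of a pyruvate dehydrogenase subunit, was the single gene not detected. Where an enzyme exists in mitochondria and cytosol, the mitochondrial form was the one in the brightest 10% for isocitrate dehydrogenase (Idh2, with cytosolic Idh1 at 7.34 and 7.10). For malate dehydrogenase both forms were, as Mdh1 gave 14.28 and 14.06.

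Serine and glutamine genes were bright. In this list 22 of 24 were detected (91.7%, against 56.7% of all named genes) and 12 were in the brightest 10%. Phgdh, the first enzyme of serine synthesis, gave 14.57 and 14.37 (rank 790) and Psat1, the second, 13.68 and 13.48. Slc38a2 (14.06 and 13.96) and Slc38a1 (13.60 and 13.43), carriers of neutral amino acids, asparagine synthetase (Asns, 13.83 and 13.88) and the mitochondrial Shmt2 (13.57 and 13.50) were the other members of the brightest 6. Gls2, a glutaminase gene, and Slc7a11, the cystine carrier, were not well above background. Slc7a5 (10.66 and 10.53), Shmt1 (9.66 and 9.19) and Tyms (8.40 and 8.43) were among the 4 dimmest detected. In the pentose phosphate pathway 8 of 10 were detected (80%). Tkt gave 15.98 and 15.72 and Taldo1 15.42 and 15.35, the rate-limiting G6pdx gave 12.10 and 11.79, and the transketolase-like genes Tktl1 and Tktl2 were not well above background.

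All 21 genes of lipid and sterol synthesis were detected (against 56.7% of all named genes), with means of both arrays from log2 7.16 upwards. Fdps, which makes farnesyl diphosphate, gave 14.52 and 14.35, Acly, which makes acetyl-CoA from citrate, 14.12 and 13.98, and the desaturase Scd2 13.90 and 13.86. Hmgcs1 (13.90 and 13.70) and Sqle (13.66 and 13.52) of the cholesterol pathway were also among the 6 brightest. Both desaturase genes were detected, Scd1 at 11.91 and 11.92. Fasn (8.35 and 8.25), Acacb (7.83 and 7.80) and Srebf1 (7.19 and 7.14) were the dimmest. In fatty acid oxidation and ketone use 15 of 18 were detected (83.3%). Oxct1, which activates ketone bodies, gave 14.45 and 14.19 and Acaa2 13.40 and 13.08. Of the carnitine transferases, Cpt1a gave 11.99 and 11.79, the muscle form Cpt1b 6.78 and 7.01, and the brain form Cpt1c was not well above background. Ppargc1a was not either.

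Of the sex-linked genes, the Y-linked Eif2s3y (12.13 and 12.01) and Ddx3y (10.45 and 10.30) were detected. Xist, which is made by cells with an inactive X chromosome, was not detected on both arrays. Its brighter probe gave 3.77 and 1.41 and was well above background on control 1 only. Of the other Y-linked genes, Kdm5d was well above background on control 1 only, and Uty and Zfy1 were not. Of 8 genes known from fetal lymphoid cells 5 were detected (62.5%, near the 56.7% of all named genes). Hmga1 gave 16.81 and 16.69 (rank 175) and Arid3a 11.39 and 11.40. Lin28a gave 6.73 and 6.79, Igf2bp2 5.18 and 4.57 and Hmga2 3.71 and 4.27, while Lin28b, Igf2bp1 and Igf2bp3 were not well above background.

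The 25 genes with the brightest probes were mostly those of ribosomes and histones. They held 12 of ribosomal proteins, Fau included, from Fau (18.14 and 18.04) and Rps10 (18.12 and 18.02) to Rpl10 (17.96 and 17.85), and 8 of histone H2A. H2ac12 had the brightest probe of all, at 18.63 and 18.61, before the tubulin gene Tuba1b at 18.56 and 18.42. Histone H2A genes are near-identical copies, and the probes of H2ac12, H2aj, H2ac10, H2ac15, H2ac19 and H2ac20 share 20-base runs with probes of 5 other genes, so their single levels are uncertain. The growth-related Tpt1 gave 18.09 and 17.98.

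Among these 25, 3 genes stood apart because their other probes were dim. Kctd14 gave 18.11 and 18.11 on 1 probe, and its other 2 probes gave 5.11 and 3.38, and 4.47 and 3.85, and were not detected on both arrays. Glrx2, a mitochondrial glutaredoxin, gave 18.07 and 18.14, then 12.13 and 11.87 and, on the last probe, which was not detected, 2.37 and 1.61. Slc10a1, the bile acid carrier of liver, gave 18.02 and 18.07 and on its other probe 1.40 and 1.46. The bright probes of Kctd14 and Glrx2 share a run of 22 bases, printed here because it is what they have in common:
shared run: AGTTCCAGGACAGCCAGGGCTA
It occurs in 4 probes in all, those of Kctd14, Glrx2, Elk1 and Med16, and all 4 were detected, at means of log2 17.59 to 18.11. The second probe of Elk1, a gene chosen after its values were seen, gave 5.46 and 5.47. Over the whole array, 341 probes share a 20-base run with probes of at least 5 other genes, each unnamed probe counted as a gene. Of these 320 were detected (93.8%, against 47.3% of all probes) with a median of log2 13.39. They were the brightest probe of 154 named genes and of 19 of the 100 brightest, and of 5 genes in the lists above, Gapdh, Hk1, Itgam, Il15ra and Snap25. The bright probe of Slc10a1 shares no such run.

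The replicates set how finely these levels can be read. Detected probes had a median absolute difference of 0.17 between arrays and a median SD of 0.12 (n = 2 arrays), and 175 of 26336 (0.664%) differed by more than 1. Dim probes differed more, as 80 of the 3859 with means under log2 5 and none of the 3361 above log2 13 differed by over 1. Control 1 was brighter by a median of 0.20 among probes above log2 15 and by -0.02 among those under log2 5. Of the 376 detected genes in the lists, 269 were brighter on control 1, and 1 differed by more than 1, the erythroid gene Slc4a1 (4.45 and 5.60).

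**Figure D5:**
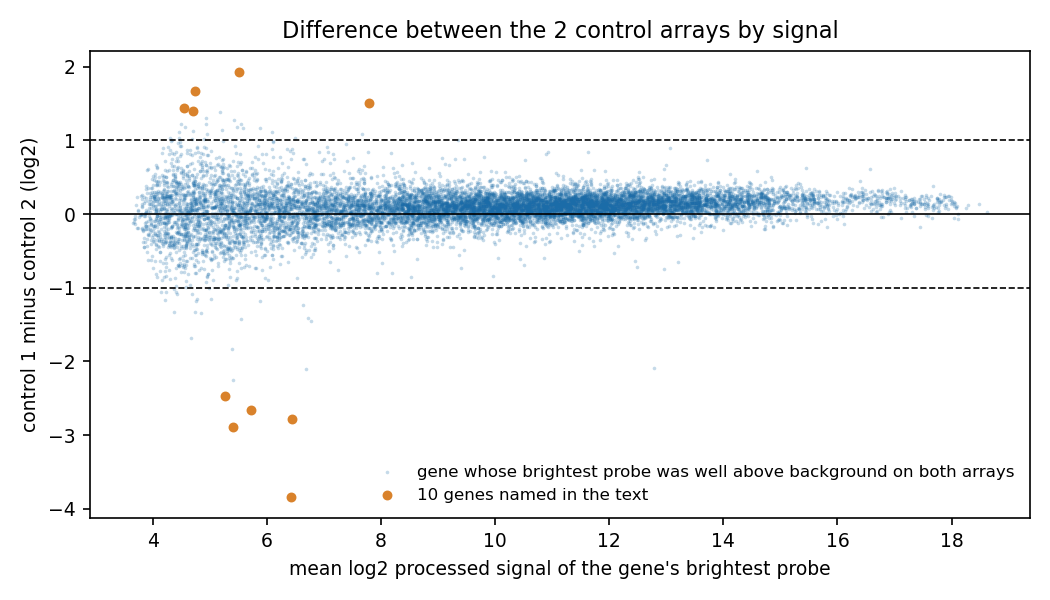
Difference between control 1 and control 2 in log2 processed signal (vertical axis) by mean signal (horizontal axis) for named genes whose brightest probe was well above background on both arrays. Dashed lines mark differences of 1 and orange points the 10 genes named in the text, the 5 with the largest difference in each direction. The cloud narrows with signal and lies above 0 at the bright end.

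The largest differences were in genes of low or middle signal. Taken over the brightest probe of each gene, brighter on control 2 were Slc16a8 (4.50 and 8.33), a lactate carrier gene, Olfr1505 (3.97 and 6.86), Serpina10 (5.05 and 7.83), Eid3 (4.40 and 7.05) and 5730408K05Rik (4.04 and 6.50). Brighter on control 1 were Ropn1l (6.48 and 4.56), 3300002P13Rik (5.57 and 3.90), Gata5 (8.55 and 7.05), Mettl7a1 (5.27 and 3.83) and Gpr45 (5.40 and 4.000). With 2 arrays it cannot be said which of the 2 values of such a gene is typical of the line.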

How the data were processed

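RNA of line 1676 was labelled with Cy3 and hybridised to single-colour Agilent mouse arrays. Per array, the authors deposited Agilent Feature Extraction output (version 10.7.1.1 in the submitters' processing notes) that holds for every spot a raw intensity, a processed intensity after background subtraction and detection flags. They also deposited a table of processed values; its control columns follow the scanner signals on the log2 scale at r = 0.99993 and 0.99995, share 1 median and are linear and quantile-normalized. Columns of the other 4 arrays were not used, and 0 other columns held per-sample values. Both control titles quote further accessions, so the arrays may stem from an earlier series.

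Control spots were left out, as were outlier spots (141 and 109); a probe with all its spots flagged (4 and 5) kept its value. Log2 processed signals were averaged over the spots of a probe, without scaling, and then over both arrays. A probe was detected when at least 0.5 of its spots were flagged well above background on each array. About 29.6% and 30.6% of spots were at the lowest value the software gives, so dim probes have no measured order, and a probe not well above background has only a bound. The number of arrays limits the precision. Probes were named through RefSeq by accession (27235), symbol (3581), synonym (565) or, for immunoglobulin constant genes, the description (8); 24292 have no name here. Coordinates of probes are those of the array design (mm9).

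There was 1 group and no contrast, so no test was run and no p-value is given. Genes were named by rule: the 25 brightest, the cell type markers, Blnk and Lat, the 6 brightest and 4 dimmest detected members of each of 33 lists with the members needed to tell family members apart, and the 5 largest replicate differences in each direction. Some list members are counted but not reported here by name or drawn in the figures. The members and lists were chosen with earlier results of these data known. Alternatives were another flag, detection on 1 array, a signal limit of 50, outlier spots kept, quantile normalization, 75th percentile scaling, normexp with an offset of 50, the authors' values, the median probe and leaving out each array. Leaving out probes that share 20-base runs was added after seeing the data. The steps were tested on simulated data. Python 3.11.15, numpy 2.4.6, pandas 2.3.3, scipy 1.17.1, matplotlib 3.10.9, R 4.3.3 and limma 3.58.1 were used.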

Additional observations from a re-analysis of the deposited data

How the results depend on the processing

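The count of detected probes (26336) ranged from 19997 with a signal limit of 50 to 35223 with the flag for positive and significant spots, and was 27560 and 27574 from single arrays. Named genes detected (12661) ranged from 10801 to 15463. Most counts per list stayed within 1.5 times the reported one. With the other flag the exceptions were NK cell and innate lymphoid genes (8), mast cell and basophil genes (1), genes of other organs (11), chemokine receptors (7), Hox genes (10) and sex-linked genes (4). With detection on at least 1 array they were 5 NK cell and innate lymphoid genes, 1 mast cell and basophil gene, 6 chemokine receptors and 4 sex-linked genes. With the limit of 50 they were 5 T cell, 2 dendritic cell, 2 erythroid and megakaryocyte, 1 stem cell, 1 Hox and 3 fetal lymphoid genes. With the median probe of each gene they were 1 NK cell and innate lymphoid, 2 dendritic cell, 1 stem cell, 2 stromal and endothelial genes and 9 growth factor and Notch receptors.

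Leaving out 1 array in turn gave 4 to 5 chemokine receptors, 3 to 5 NK cell and innate lymphoid genes, 0 to 1 mast cell and basophil genes and 2 to 4 sex-linked genes. Probes that differed by over 1 between arrays fell from 175 to 33 after normexp and to 31 with the limit of 50. Ranks of the list genes moved by a median of at most 0.6 percentile points in all settings but the median probe, where 86 of 574 moved by over 10 points and Cd79a went to 88.6% of genes dimmer. After normexp 36 list genes moved by over 10 points (at most 23.6), and with 1 array left out 26 did in either case (at most 31.0 without control 1 and 38.7 without control 2). Without the probes that share 20-base runs, 3 list genes moved by over 10 points, Hk1 the most (25.4). No paired analysis was possible because there is 1 group and no test. Causes of these shifts were not tested.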

Other observations

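Gene families outside the lists were counted by their symbols after the values were seen. All 12 protein-coding genes with probes on the mitochondrial chromosome were detected and 10 were in the brightest 10%. COX1, a subunit of cytochrome oxidase, gave 17.34 and 17.36 on the log2 scale (rank 89) and COX2 gave 17.33 and 17.22. ND6, a subunit of complex I, had the dimmest probe, at 8.67 and 8.62. Of the nuclear genes of complex I all 37 were detected, 34 of them in the brightest 10%. Proteasome subunit genes were detected in 37 of 39 cases (94.9%) and genes of cytosolic ribosomal proteins in 82 of 85 (96.5%), against 56.7% of all named genes. Of the ribosomal protein genes 80 were in the brightest 10%. All 6 genes of the MCM helicase, which opens DNA for replication, were in the brightest 10%, from Mcm6 (16.74 and 16.50) to Mcm2 (13.25 and 13.08).

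Families that belong to other tissues gave low shares. Of 1095 olfactory receptor genes 78 were detected (7.12%), of 256 vomeronasal receptor genes 13 (5.08%) and of 49 keratin genes 11 (22.4%), against 56.7% of all named genes, and none was in the brightest 10%. Of 11 genes of the MHC class II pathway 10 were detected. H2-Ab1 gave 13.49 and 13.51 and H2-Eb1 gave 10.79 and 11.15, while their partner chains H2-Aa and H2-Ea gave 6.44 and 6.94, and 4.72 and 4.88. Cd74, the invariant chain, gave 7.53 and 8.32, a wider gap between arrays than 95% of detected probes show. Probes for long intergenic RNA intervals were detected in 5346 of 16181 cases (33.0%, against 47.3% of all probes).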
